A study of Mus musculus with 7 samples.

Results

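Adrenergic receptors and the first steps of cyclic AMP signalling were followed through 9 genes in RNA sequencing of mouse left ventricle. The 9 are the alpha-1 receptor genes Adra1a, Adra1b and Adra1d, the beta receptor genes Adrb1 and Adrb3, the adenylyl cyclase genes Adcy5 and Adcy6, and the G protein alpha subunit genes Gnas and Gnai2. They were picked out of 22027 listed genes by matching Ensembl identifiers to these symbols, and all 9 were found. They were selected on known biology with the measured fold changes between the 2 groups in view, so their differences between groups are given as a description, with fitted values, errors and intervals and no p-value for a member.

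The mice were telomerase-deficient C57BL/6J animals aged 12 months, a line in which telomeres shorten over generations. One group of 3 libraries is labelled G3 PGC1aOE, meaning such mice with the transcriptional coactivator PGC1alpha overexpressed, and the other group of 4 libraries is labelled G3, with the same background and no overexpression named. The sources used here do not give the promoter that drove the overexpression, the telomerase gene that was lost, or whether libraries share an animal or litter. Spreads therefore describe these samples and may be technical in part. Total counts ran from 11576569 to 16056740 in the libraries labelled G3 PGC1aOE and from 10106705 to 14119403 in G3. Ppargc1a, the gene of PGC1alpha, averaged 68.2 ± 30.8 CPM (SD, n = 3), the count scaled to a common TMM-adjusted library size, in the libraries labelled G3 PGC1aOE and 89.0 ± 25.4 CPM (SD, n = 4) in G3. Its log2 fold change was −0.38 (SE 0.34) and the groups overlapped, so the message did not show the labelled overexpression and each direction given here rests on the label alone. Cardiomyocyte markers were abundant in every library, and none of 14 was at 0.

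In the heart, noradrenaline from sympathetic nerves and adrenaline from blood act on both receptor families. Beta-1 receptors couple to the stimulatory G protein encoded by Gnas, which turns on adenylyl cyclase, and the cyclic AMP so made activates protein kinase A and raises the rate and force of the beat. The inhibitory subunit encoded by Gnai2 restrains the cyclase, while alpha-1 receptors couple to Gq proteins and phospholipase C instead and take part in cardiomyocyte growth and survival.

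RefSeq start-site windows were at hand for 4 of the 9 genes, Adra1b, Adrb1, Adcy5 and Gnas, in 8 windows on GRCm38.p6, a later build than the mm9 used by the authors. The 250 bases before the start are shown for Adra1b and Adrb1, the alpha-1 and beta receptor genes of highest FPKM among the 9. Adra1b has 2 starts 64.7 kb apart on chromosome 11, called upstream and downstream here, so its gene-level count does not tell which start was used. A GENCODE M21 transcript of the gene matched at the start of the upstream Adra1b window. None was found to match at the downstream Adra1b start or at the Adrb1 start, so these rest on RefSeq alone. Capitals mark the short core of the cyclic AMP response element, TGACG or, on the other strand, CGTCA.
Adra1b upstream start, chr11:43901238-43901487, minus strand: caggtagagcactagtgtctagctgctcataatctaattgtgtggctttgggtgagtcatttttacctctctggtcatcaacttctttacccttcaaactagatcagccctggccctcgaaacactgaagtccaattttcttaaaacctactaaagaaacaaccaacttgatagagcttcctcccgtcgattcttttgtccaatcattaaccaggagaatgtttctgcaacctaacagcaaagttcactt
Adra1b downstream start, chr11:43836490-43836739, minus strand: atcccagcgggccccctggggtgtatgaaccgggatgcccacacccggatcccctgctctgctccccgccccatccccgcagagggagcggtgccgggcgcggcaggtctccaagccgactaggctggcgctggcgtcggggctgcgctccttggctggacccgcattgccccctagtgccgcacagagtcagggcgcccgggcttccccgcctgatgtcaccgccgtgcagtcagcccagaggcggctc
Adrb1, chr19:56721867-56722116, plus strand: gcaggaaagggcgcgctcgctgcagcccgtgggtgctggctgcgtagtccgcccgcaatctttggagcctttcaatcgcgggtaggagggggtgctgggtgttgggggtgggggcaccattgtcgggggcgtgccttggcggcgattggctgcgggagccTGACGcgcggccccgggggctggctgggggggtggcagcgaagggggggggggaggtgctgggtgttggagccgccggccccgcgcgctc
The Adrb1 window held 1 such core, which begins 90 bases before the start, and neither Adra1b window held one. Among all 32851 windows of 300 bases, 20.8% held a core and 1.79% the full element TGACGTCA, which overlaps the core and was in no window of the 4 genes. The 2 Adra1b starts differed in base composition, with 41.6% G and C in the upstream one and 72.8% in the downstream one, and Adrb1 had 74.0%. A match in these letters is a description of the window and says nothing of use in these hearts.

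Per length of gene, Gnai2 was the most abundant of the 9 genes and Adrb3 the least. Mean FPKM over the 7 libraries was 282 ± 49.5 (SD) for Gnai2, 47.1 ± 15.3 for Adcy6, 24.8 ± 7.69 for Gnas, 11.6 ± 3.23 for Adcy5, 9.21 ± 3.36 for Adra1b, 5.05 ± 1.23 for Adrb1, 3.40 ± 1.86 for Adra1a and 1.07 ± 0.61 for Adra1d. Adrb3 ranged from 0 to 0.187 FPKM. FPKM here is the deposited value, the count divided by library total and gene length. The steps from Gnai2 to Adcy6, Adcy6 to Gnas, Gnas to Adcy5, Adra1b to Adrb1 and Adra1a to Adra1d kept their order in 7 of 7 libraries, although the ranges over libraries overlapped for Adcy6 and Gnas, Adra1b and Adrb1, and Adra1a and Adra1d. Adrb1 stood above Adra1a in 6 of 7, all but G3 4, and Adcy5 above Adra1b in 4 of 7. On deposited FPKM these neighbours therefore did not keep their order in every library. The order of genes depends on the length used. The deposited FPKM divides Gnai2 by 873 bp and Gnas by 2052 bp, whereas the longest coding transcript in GENCODE M21 has 2215 bp for Gnai2 and 3729 bp for Gnas. With the longest coding lengths for all genes, Gnas stood above Adcy5 in 4 of 7 libraries, Adcy5 above Adra1b in 7 of 7 and Adrb1 above Adra1a in 5 of 7, and Gnai2 stayed above Adcy6 in 7 of 7.

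Adra1a (ENSMUSG00000045875), the alpha-1A receptor, had the lowest fold change of the 8 genes in the fit in the libraries labelled G3 PGC1aOE. It measured 9.15, 3.42 and 6.99 CPM in libraries 1 to 3 labelled G3 PGC1aOE, against 13.4, 18.4, 13.8 and 23.3 CPM in G3 1 to 4. No library of either group reached into the range of the other, and G3 PGC1aOE 2 was lowest and G3 4 highest. From 118, 47 and 95 counts in the libraries labelled G3 PGC1aOE and 147, 249, 154 and 310 in G3, edgeR fitted a log2 fold change of −1.40 (SE 0.34, 95% interval −2.16 to −0.64), that is 0.378 times the G3 level. Groups that do not overlap in the lower direction were found for 303 of 12674 tested genes, a background of 2.39% (4.58% in either direction), and nothing is read from this gene's place among them because it was chosen with that contrast known. The samples' descriptions carry codes whose meaning is not stated. The digit after the letter G in the code is 2 in G3 PGC1aOE 1, G3 1 and G3 3 and 3 in the other 4 libraries, although every title reads G3. The letters before that G are PC in every library labelled G3 PGC1aOE, C in G3 1 and G3 2, P in G3 4 and none in G3 3. The codes end in a number. G3 PGC1aOE 1 and G3 1 to 3 have numbers below 80 and are called low-coded here, and G3 PGC1aOE 2 and 3 and G3 4 are called high-coded. G3 PGC1aOE 1 is thus the only low-coded library of its group and its only library of digit 2, and G3 4 is the only high-coded G3 library. Each difference given here among low-coded, high-coded or digit 2 libraries rests on that lone library for its group, without a spread. The difference in mean log2 CPM of Adra1a was −0.71 among low-coded and −2.21 among high-coded libraries, beside −1.45 over all. It was −0.56 among the libraries of digit 2 and −2.04 among those of digit 3. Leaving out G3 PGC1aOE 2 gave −1.10 for the fitted fold change on the log2 scale. In whole tissue, fewer cells that carry a message and less message per cell cannot be told apart.

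**Figure D1:**
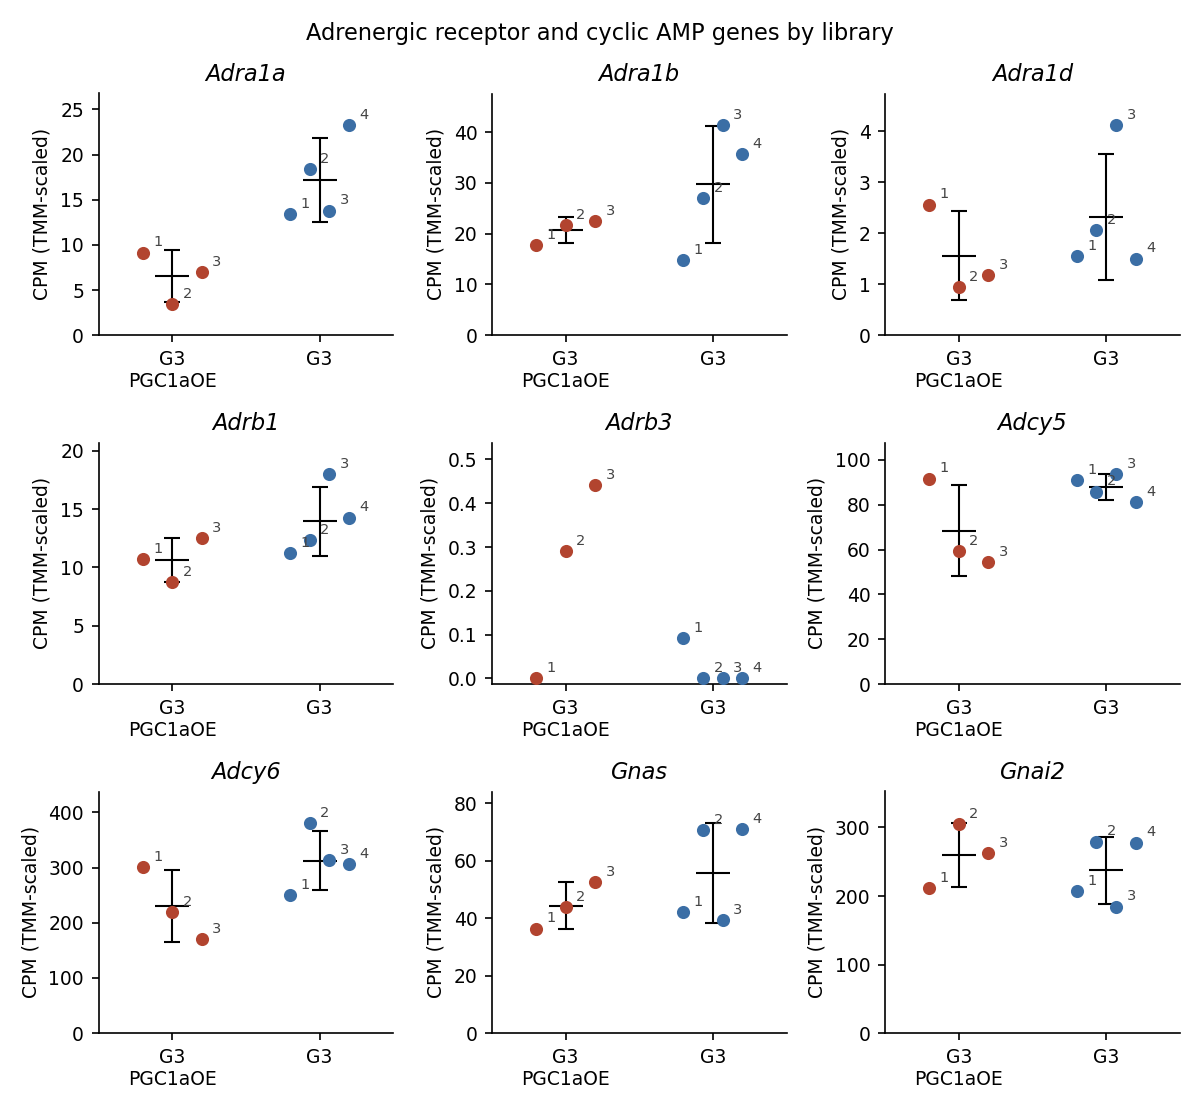
TMM-scaled CPM of each of the 9 genes by library, libraries labelled G3 PGC1aOE on the left and G3 on the right, with the replicate number beside each point; bars give mean and SD except for Adrb3. Adra1a is the gene whose groups do not overlap, at 3.42 to 9.15 CPM in the libraries labelled G3 PGC1aOE and 13.4 to 23.3 CPM in G3.

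Adra1b (ENSMUSG00000050541), the alpha-1B receptor, measured 17.8, 21.7 and 22.5 CPM in the libraries labelled G3 PGC1aOE and 14.8, 27.0, 41.4 and 35.7 CPM in G3 1 to 4. The groups overlapped, because G3 1 was the lowest library of all, and the G3 libraries were spread more widely than those labelled G3 PGC1aOE. Its log2 fold change was −0.52 (SE 0.32), with a log2 CPM difference of −0.52 among low-coded and −0.69 among high-coded libraries. Adra1d (ENSMUSG00000027335), the alpha-1D receptor of vascular smooth muscle, was scarce, with 33, 13 and 16 counts in the libraries labelled G3 PGC1aOE and 17, 28, 46 and 20 counts in G3. Its log2 fold change of −0.56 (SE 0.50) had a 95% interval that spans both signs, −1.66 to 0.53, and the log2 CPM difference was 0.10 among low-coded and −0.45 among high-coded libraries.

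Adra1b held the greater part of alpha-1 receptor message in every library. Of the summed FPKM of the 3 alpha-1 genes, Adra1a took 23.9%, 9.82% and 17.5% in libraries 1 to 3 labelled G3 PGC1aOE and 36.7%, 31.1%, 17.6% and 31.2% in G3 1 to 4. The means were 17.1% ± 7.03 (SD, n = 3) in the libraries labelled G3 PGC1aOE and 29.1% ± 8.10 (SD, n = 4) in G3. The groups overlapped, since G3 3 lay in the range of the libraries labelled G3 PGC1aOE. Of alpha-1 counts not divided by length, Adra1a made up 13.1% in G3 PGC1aOE 2 (95% Wilson interval 9.99% to 17.0%), the lowest library, and 45.1% in G3 1 (39.8% to 50.5%), the highest. In the other direction, G3 PGC1aOE 1 at 31.1% (26.6% to 35.9%) stood above G3 3 at 23.3% (20.2% to 26.6%). Such intervals cover counting error only. Adra1b took 74.7% ± 11.1 (SD, n = 3) of the FPKM in the libraries labelled G3 PGC1aOE and 63.4% ± 7.03 (SD, n = 4) in G3. Adra1d took 8.22% ± 4.43 of it in the libraries labelled G3 PGC1aOE and 7.50% ± 2.74 in G3. The difference in the Adra1a share was −12.1 percentage points over all, −4.61 among low-coded and −17.5 among high-coded libraries. By the digit of the code it was −3.31 for 2 and −17.4 for 3. That in the Adra1b share was 11.4 over all, −0.060 among low-coded and 15.9 among high-coded libraries.

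Set against the beta-1 receptor, Adra1a was lower in the libraries labelled G3 PGC1aOE on average, while the mean ratio of Adra1b was close in both groups. The log2 ratio of Adra1a to Adrb1 in FPKM was −0.83, −1.96 and −1.45 in the libraries labelled G3 PGC1aOE and −0.35, −0.031, −0.99 and 0.099 in G3 1 to 4. G3 3 fell below G3 PGC1aOE 1, so these groups overlapped too. The log2 ratio of Adra1b to Adrb1 averaged 0.80 ± 0.31 (SD, n = 3) in the libraries labelled G3 PGC1aOE and 0.85 ± 0.42 (SD, n = 4) in G3. Summed over subtypes, the log2 ratio of the 3 alpha-1 genes to Adrb1 and Adrb3 in FPKM was 1.19 ± 0.17 (SD, n = 3) in the libraries labelled G3 PGC1aOE and 1.51 ± 0.30 (SD, n = 4) in G3, with overlap. The difference in the Adra1a to Adrb1 ratio was −0.38 among low-coded and −1.80 among high-coded libraries, and that in the summed ratio −0.18 among low-coded and −0.61 among high-coded libraries. By the digit of the code, the Adra1a to Adrb1 ratio differed by −0.16 for 2 and by −1.74 for 3.

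**Figure D2:**
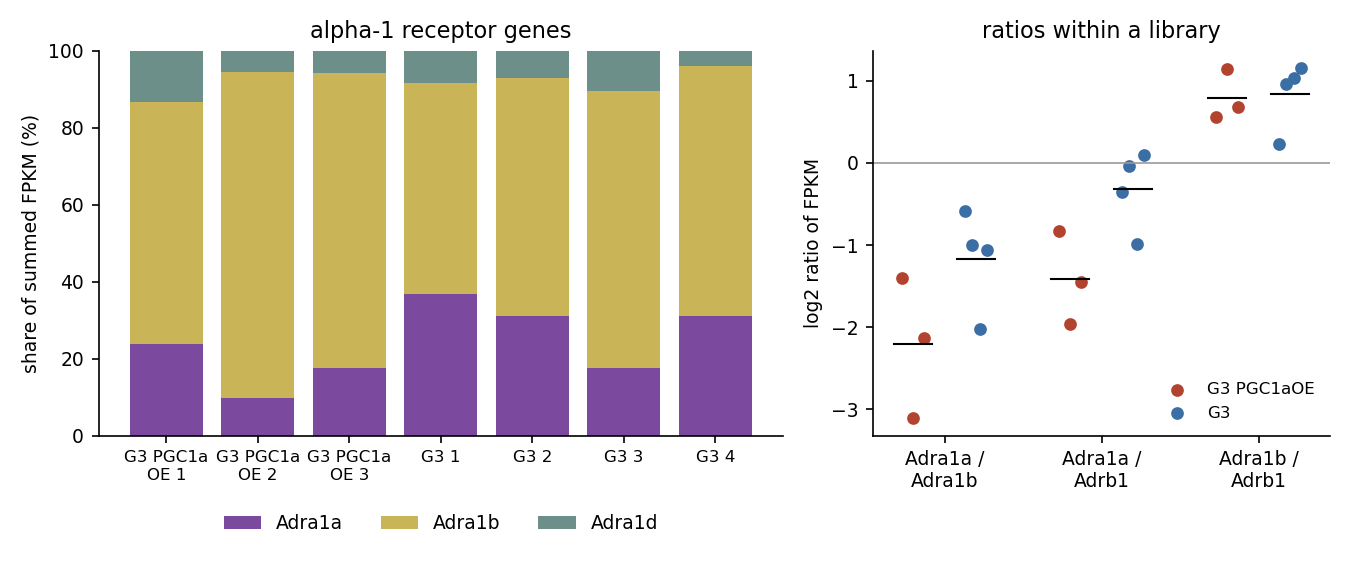
Left, the share in percent of summed alpha-1 receptor FPKM held by Adra1a, Adra1b and Adra1d in each library; right, log2 ratios of FPKM between receptor genes within each library, with a line at each group mean. The Adra1a share runs from 9.82% to 23.9% in the libraries labelled G3 PGC1aOE and from 17.6% to 36.7% in G3.

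Adrb1 (ENSMUSG00000035283), the main cardiac beta receptor, measured 10.7, 8.73 and 12.5 CPM in the libraries labelled G3 PGC1aOE and 11.2, 12.3, 18.0 and 14.3 CPM in G3 1 to 4. G3 1 and G3 2 lay within the range of the other group, and G3 3 was highest. edgeR gave a log2 fold change of −0.39 (SE 0.24, 95% interval −0.91 to 0.13). Mean log2 CPM differed by −0.34 among low-coded and by −0.44 among high-coded libraries, and by −0.40 for digit 2 and −0.34 for digit 3.

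Adrb3 (ENSMUSG00000031489), the beta-3 receptor best known from fat cells, was near the limit of detection. It had 0, 4 and 6 counts in libraries 1 to 3 labelled G3 PGC1aOE and 1, 0, 0 and 0 in G3 1 to 4, and it was left out of the fit as too low. Summed, 10 counts in 42524729 in the libraries labelled G3 PGC1aOE stand against 1 in 47460927 in G3, a ratio of 11.2 with an exact 95% counting interval from 1.59 to 484 that compares these libraries and not the conditions. A count of 0 allows up to 3 counts, which is 0.259 CPM in G3 PGC1aOE 1 and, among G3 libraries, 0.250 CPM in G3 2, 0.267 in G3 3 and 0.212 in G3 4, per total without TMM scaling. Adipocyte markers were also higher in some of the same libraries: 7 of 8 tested were above 0 in log2 fold change, and their mean log2 CPM was 1.25, 2.42 and 3.27 in the libraries labelled G3 PGC1aOE and 0.12, 2.47, −0.29 and −0.39 in G3 1 to 4. The summed CPM of all 10 adipocyte markers ran from 213 to 302 in the libraries labelled G3 PGC1aOE and from 198 to 446 in G3, most of it Plin4, at 225 ± 69.5 CPM in the libraries labelled G3 PGC1aOE and 299 ± 99.1 CPM in G3. Cfd, the adipocyte protease adipsin, averaged 10.3 ± 6.03 CPM in the libraries labelled G3 PGC1aOE and 6.02 ± 10.8 CPM in G3. Ucp1, which defines brown fat, was at 0 in every library. G3 2, with a marker mean as high as that of G3 PGC1aOE 2, had no Adrb3 count. The part of fat cells in the Adrb3 counts was not tested.

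Both cyclase genes were lower on average in the libraries labelled G3 PGC1aOE, with overlap. Adcy6 (ENSMUSG00000022994), with Adcy5 the main cyclase of the cardiomyocyte, measured 301, 219 and 171 CPM in the libraries labelled G3 PGC1aOE and 250.02, 381, 313 and 306 CPM in G3 1 to 4. Its log2 fold change was −0.44 (SE 0.28). Adcy5 (ENSMUSG00000022840) measured 91.6, 59.3 and 54.5 CPM in the libraries labelled G3 PGC1aOE and 91.0, 85.8, 93.6 and 81.02 CPM in G3, a log2 fold change of −0.36 (SE 0.24). For both genes G3 PGC1aOE 1 sat within the G3 range while G3 PGC1aOE 2 and 3 lay below it. Among low-coded libraries the log2 CPM difference was 0.024 for Adcy5 and −0.045 for Adcy6. Among high-coded libraries it was −0.51 for Adcy5 and −0.66 for Adcy6. By the digit of the code, Adcy5 differed by −0.011 for 2 and −0.55 for 3, and Adcy6 by 0.10 for 2 and −0.82 for 3. The log2 ratio of Adcy5 to Adcy6 in FPKM was −1.97 ± 0.12 (SD, n = 3) in the libraries labelled G3 PGC1aOE and −2.04 ± 0.29 (SD, n = 4) in G3, a difference of 0.068 that is smaller than either SD.

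Gnas (ENSMUSG00000027523), the stimulatory subunit, measured 36.3, 43.8 and 52.6 CPM in the libraries labelled G3 PGC1aOE and 42.2, 70.5, 39.3 and 70.9 CPM in G3 1 to 4. G3 2 and G3 4, the G3 libraries of code digit 3, stood above the rest. The log2 fold change was −0.33 (SE 0.27), and log2 CPM differed by −0.43 among low-coded and −0.56 among high-coded libraries. By the digit of the code, Gnas differed by −0.17 for 2 and −0.56 for 3. The Gnas locus makes several overlapping transcripts, some antisense. The sources used here do not name the use of strand in counting, so its count may hold more than the stimulatory subunit. Gnai2 (ENSMUSG00000032562), the inhibitory subunit, measured 212, 305 and 263 CPM in the libraries labelled G3 PGC1aOE and 208, 279, 185 and 278 CPM in G3. Its log2 CPM difference was −0.056 among low-coded and 0.027 among high-coded libraries. The log2 fold change was 0.13 (SE 0.26), and its sign turned to −0.027 with the code number as a covariate and to −0.077 once the trend on gene length was removed.

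The ratio of Gnas to Gnai2 was lower in every library labelled G3 PGC1aOE than in every G3 library. The log2 ratio in FPKM was −3.78, −4.03 and −3.56 in libraries 1 to 3 labelled G3 PGC1aOE and −3.53, −3.22, −3.46 and −3.20 in G3 1 to 4. The nearest libraries of the groups, G3 PGC1aOE 3 and G3 1, were almost level. The means were −3.79 ± 0.24 (SD, n = 3) in the libraries labelled G3 PGC1aOE and −3.35 ± 0.17 (SD, n = 4) in G3, a difference of −0.43. It was −0.37 among low-coded and −0.59 among high-coded libraries, −0.28 for digit 2 and −0.58 for digit 3, signs that follow from the lack of overlap. The FPKM lengths differ, at 2052 bp for Gnas and 873 bp for Gnai2. With the trend on gene length removed, the log2 difference was −0.27 for Gnas and −0.077 for Gnai2, nearer each other than the −0.33 and 0.13 fitted. The ratio itself was not recomputed that way, and the share of other gene pairs without overlap was not computed.

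**Figure D3:**
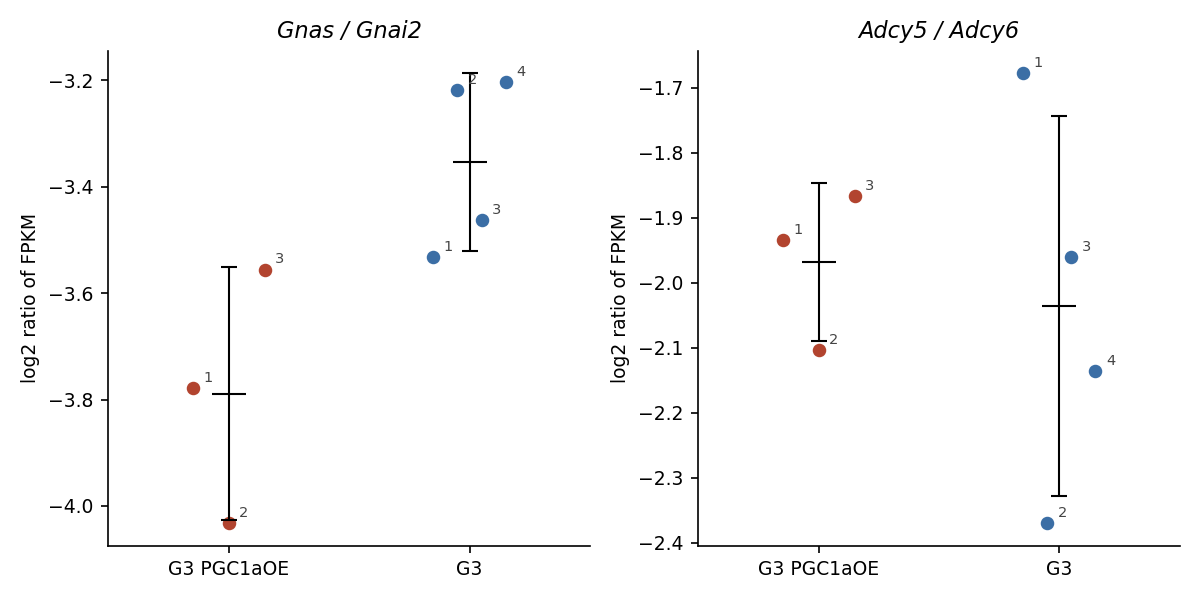
Log2 ratio of FPKM of Gnas to Gnai2 (left) and of Adcy5 to Adcy6 (right) in each library, libraries labelled G3 PGC1aOE left of G3, with mean and SD and the replicate number beside each point. The Gnas to Gnai2 ratio averages −3.79 in the libraries labelled G3 PGC1aOE and −3.35 in G3 without overlap, and the Adcy5 to Adcy6 ratio −1.97 in G3 PGC1aOE and −2.04 in G3 with overlap.

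Of the 9 genes, 8 passed the filter on low counts and entered the fit, and 7 of these had a log2 fold change below 0, with a median of −0.42. Over all 12674 tested genes 49.1% were below 0, and the median was 0.0076. At an adjusted p of 0.05 edgeR's quasi-likelihood test called 0 genes of the whole table (0%), with 548 (4.32%) at an unadjusted p under 0.05. DESeq2 called 3 (0.0237%), which are not among the 9. Gene length went with the fold change across the table. The median log2 fold change was 0.23 among the shortest of 5 equal groups of tested genes by length, up to 1183 bp, and −0.15 among the longest, from 3220 bp. Gnai2, with 873 bp behind its FPKM, belongs to the shortest group, and Adra1a with 3795 bp, Adcy6 with 6017 bp and Adcy5 with 7007 bp to the longest. The part of length in these values was not tested. With each library's length trend removed, the log2 difference was −1.32 for Adra1a, −0.36 for Adra1b, −0.51 for Adra1d, −0.32 for Adrb1, −0.16 for Adcy5, −0.25 for Adcy6 and −0.27 for Gnas.

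**Figure D4:**
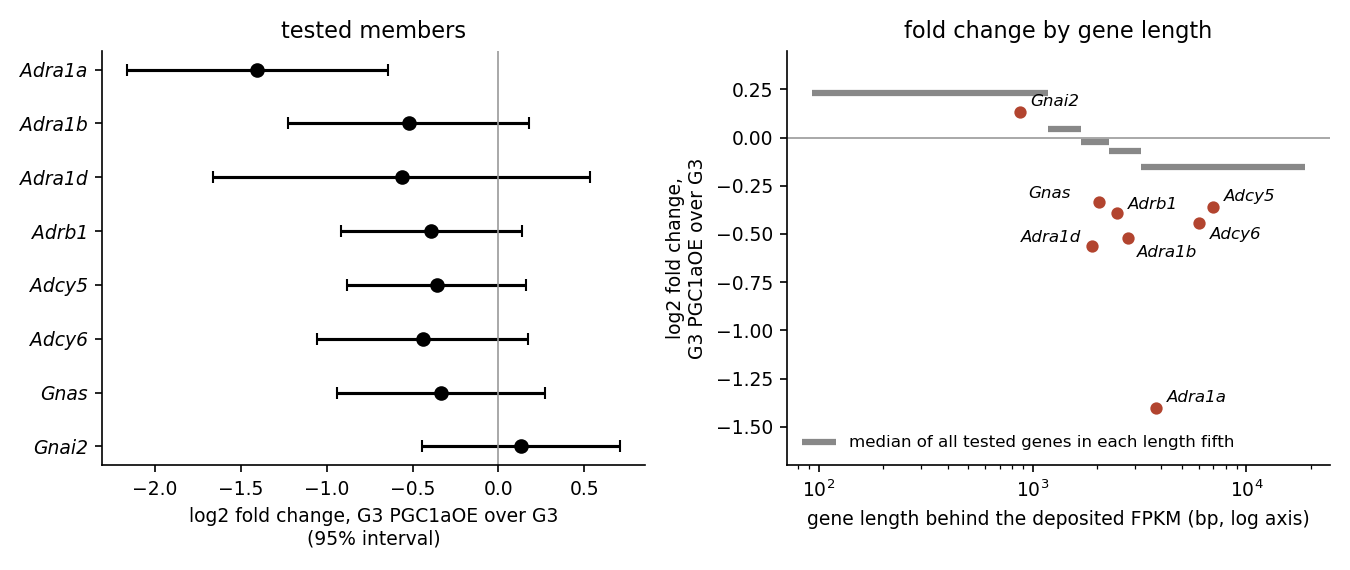
Left, log2 fold change of the 8 tested genes with 95% intervals, G3 PGC1aOE over G3; right, the same values against gene length on a log axis, with bars at the median of all tested genes in each of 5 length groups. Adra1a lies at −1.40, and the bars step down from 0.23 to −0.15 as genes lengthen.

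Cell type markers in the same libraries give the setting of these values. The summed CPM of 14 cardiomyocyte markers ran from 54354 to 94080 in the libraries labelled G3 PGC1aOE and from 54603 to 75862 in G3, with 11 of 14 above 0 and a median log2 fold change of 0.12. Myh6, a cardiac myosin gene and the lowest of the 14 by fold change at −0.40 (SE 0.38), measured 11224 ± 3027 CPM (SD, n = 3) in the libraries labelled G3 PGC1aOE and 14847 ± 5605 CPM (SD, n = 4) in G3. Tnnt2, cardiac troponin T, measured 12334 ± 2421 CPM (SD, n = 3) in the libraries labelled G3 PGC1aOE and 12290 ± 1585 CPM (SD, n = 4) in G3. The 12 fibroblast markers summed to between 2139 and 3198 CPM in the libraries labelled G3 PGC1aOE and between 1384 and 2385 CPM in G3, with 10 of 12 above 0 and a median of 0.75. Of the 12, 5 were higher in every library labelled G3 PGC1aOE than in every G3 library, where 2.19% of all tested genes were. The mean log2 CPM of the 12 did not overlap, at 6.53, 6.65 and 6.72 in the libraries labelled G3 PGC1aOE and 6.30, 6.17, 5.57 and 5.53 in G3 1 to 4. Their most abundant genes were Gsn, at 0.67 (SE 0.34), and Dcn, at 0.37 (SE 0.39). The 10 smooth muscle and pericyte markers, the cells in which Adra1d is best known, summed to between 764 and 1168 CPM in the libraries labelled G3 PGC1aOE and between 601 and 1013 CPM in G3, with 7 of 10 above 0, and Rgs5 and Abcc9, the most abundant, at −0.18 (SE 0.26) and −0.50 (SE 0.39). Of the remaining marker lists, 3 of 3 tested genes of T, B and NK cells, 1 of 2 of skeletal muscle and 1 of 3 of red cells were above 0. The part of cell makeup in the receptor values was not tested.

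Beyond the 9 genes, 12 lists of genes of the same pathway were followed, and 0 of their 136 tested genes passed edgeR's test in either direction. Of these 136 genes, 54.4% were below 0, with a median log2 fold change of −0.046. Across all tested genes, groups lay apart for 2.39% in the lower direction and 2.19% in the higher. In the lists they lay apart lower for 1 cyclic AMP effector, 1 kinase A scaffold and 2 kinase A targets. They lay apart higher for 1 cyclase, 1 cyclic AMP effector and 1 desensitization or RGS gene, and for none in the other lists. Genes are named for the smallest p of their list, a choice that favours groups lying apart. The alpha-2 receptor genes Adra2a, Adra2b and Adra2c were each below 1 CPM on average over all libraries and were not tested. Together they summed to between 1.01 and 3.42 CPM in the libraries labelled G3 PGC1aOE and between 0.68 and 1.48 CPM in G3. Of the 7 tested receptors that couple to Gs or Gi, 6 were above 0, with a median of 0.12, including the prostaglandin receptor gene Ptger4 at 0.42 (SE 0.28) and the sphingosine phosphate receptor gene S1pr1 at 0.26 (SE 0.25).

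The other cyclases and G protein subunits went both ways. Among 6 tested cyclases 3 were above and 3 below 0. Adcy7 measured 16.6 ± 5.68 CPM (SD, n = 3) in the libraries labelled G3 PGC1aOE and 9.51 ± 1.63 CPM (SD, n = 4) in G3, a log2 fold change of 0.81 (SE 0.26), and its groups did not overlap, where 2.19% of all tested genes lay apart in that direction. Adcy4 measured 38.8 ± 21.1 CPM in the libraries labelled G3 PGC1aOE and 22.1 ± 4.82 CPM in G3, also 0.81 (SE 0.35). Beside these, the 10 macrophage and monocyte markers summed to between 568 and 620 CPM in the libraries labelled G3 PGC1aOE and between 276 and 652 CPM in G3, with 9 of 10 above 0 and none at 0, and Lyz2 and C1qa led them at 0.45 (SE 0.37) and 0.29 (SE 0.37). The 10 endothelial markers summed to between 953 and 1619 CPM in the libraries labelled G3 PGC1aOE and between 905 and 1133 CPM in G3, with 8 of 10 above 0 and none at 0, led by Eng at 0.68 (SE 0.33) and Pecam1 at 0.14 (SE 0.26). Whether those cells had a part in the cyclase values was not tested. Of 18 tested G protein subunits 10 were above 0, and the gamma subunit genes Gng11 and Gng5 had 0.95 (SE 0.39) and 0.58 (SE 0.29).

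Downstream of alpha-1 receptors, 7 of 14 effector genes were below 0, with a median of 0.0085. Prkce, the epsilon isoform of protein kinase C, stood at 21.1 ± 8.07 CPM (SD, n = 3) in the libraries labelled G3 PGC1aOE and 33.9 ± 5.83 CPM (SD, n = 4) in G3, a log2 fold change of −0.68 (SE 0.28). Dgkz, a kinase that removes diacylglycerol, had 0.30 (SE 0.26).

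Genes that break down cyclic nucleotides or respond to cyclic AMP went both ways, and none passed the test. Of those named, Hcn4 and Pde3a averaged lower in the libraries labelled G3 PGC1aOE, and Pde1b and Prkar2b averaged higher. Of 16 tested phosphodiesterases 7 were below 0. Pde3a, a main cyclic AMP phosphodiesterase of the heart, ran from 27.4 to 82.7 CPM in the libraries labelled G3 PGC1aOE and from 77.2 to 123 CPM in G3, with a log2 fold change of −0.79 (SE 0.35), and Pde1b had 0.86 (SE 0.39). Cyclic AMP effectors were below 0 in 13 of 17 cases, with a median of −0.23. The pacemaker channel gene Hcn4 stood at 1.54 ± 1.38 CPM (SD, n = 3) in the libraries labelled G3 PGC1aOE and 4.91 ± 1.78 CPM (SD, n = 4) in G3 without overlap, where 2.39% of all tested genes lay apart in that direction. Hcn4 was scarce, at 1.32, 0.291 and 3.02 CPM in libraries 1 to 3 labelled G3 PGC1aOE. The lowest G3 library for it was G3 3, at 3.58 CPM. Hcn4 had a log2 fold change of −1.67 (SE 0.59), while the kinase A regulatory subunit gene Prkar2b had 0.81 (SE 0.38). Atrial markers summed to between 478 and 3941 CPM in the libraries labelled G3 PGC1aOE and between 96.4 and 2843 CPM in G3, with 4 of 5 tested above 0, led by Nppa at 0.43 (SE 1.11) and Myl7 at 1.16 (SE 2.38). The lowest of the 5 was at −0.69, and 1 was lower in every library labelled G3 PGC1aOE than in every G3 library. Their mean log2 CPM was 2.58, 3.87 and 7.96 in the libraries labelled G3 PGC1aOE and 6.81, 7.31, 1.77 and 2.19 in G3 1 to 4. The part of atrial cells in the Hcn4 value was not tested. Scaffold genes that anchor kinase A were below 0 in 7 of 9 cases, with a median of −0.38. Akap10 had −0.39 (SE 0.22) without overlap between the groups, beside the same 2.39% of all tested genes, and Akap9 had −0.54 (SE 0.30).

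Targets of kinase A in the cardiomyocyte were below 0 in 9 of 13 cases, with a median of −0.17. Atp2a2, which returns calcium to the sarcoplasmic reticulum, and Rrad, a brake on the calcium channel, did not overlap between the groups, at −0.84 (SE 0.33) and −0.69 (SE 0.27). Over all tested genes 2.39% lay apart in that direction. Both genes were named for the smallest p of their list, a choice that favours groups lying apart. In the desensitization and RGS list 7 of 16 were below 0. Rgs10, an RGS gene also expressed in macrophages, measured 7.56 ± 3.07 CPM (SD, n = 3) in the libraries labelled G3 PGC1aOE and 3.55 ± 0.58 CPM (SD, n = 4) in G3, without overlap, at 1.09 (SE 0.33), and the arrestin gene Arrb2 had 0.68 (SE 0.34). In that higher direction 2.19% of all tested genes lay apart.

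Genes of catecholamine handling were below 0 in 5 of 8 cases, with a median of −0.31. Maob, which degrades amines, had −0.75 (SE 0.31), and Dbh, which makes noradrenaline in nerve endings, had 1.21 (SE 0.57) with 3.19 ± 1.69 CPM (SD, n = 3) in the libraries labelled G3 PGC1aOE and 1.37 ± 0.94 CPM (SD, n = 4) in G3. The 11 Schwann cell and neuron markers, of which Dbh is one, summed to between 43.3 and 66.9 CPM in the libraries labelled G3 PGC1aOE and between 19.8 and 49.3 CPM in G3, and all 9 tested were above 0, led by Uchl1 at 0.041 (SE 0.43) and Mbp at 1.52 (SE 0.51). Their part in the Dbh value was not tested. Of 12 genes of cyclic AMP responsive transcription 7 were below 0, with a median of −0.026, Crem at 0.60 (SE 0.43) and Atf1 at −0.36 (SE 0.29).

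**Figure D5:**
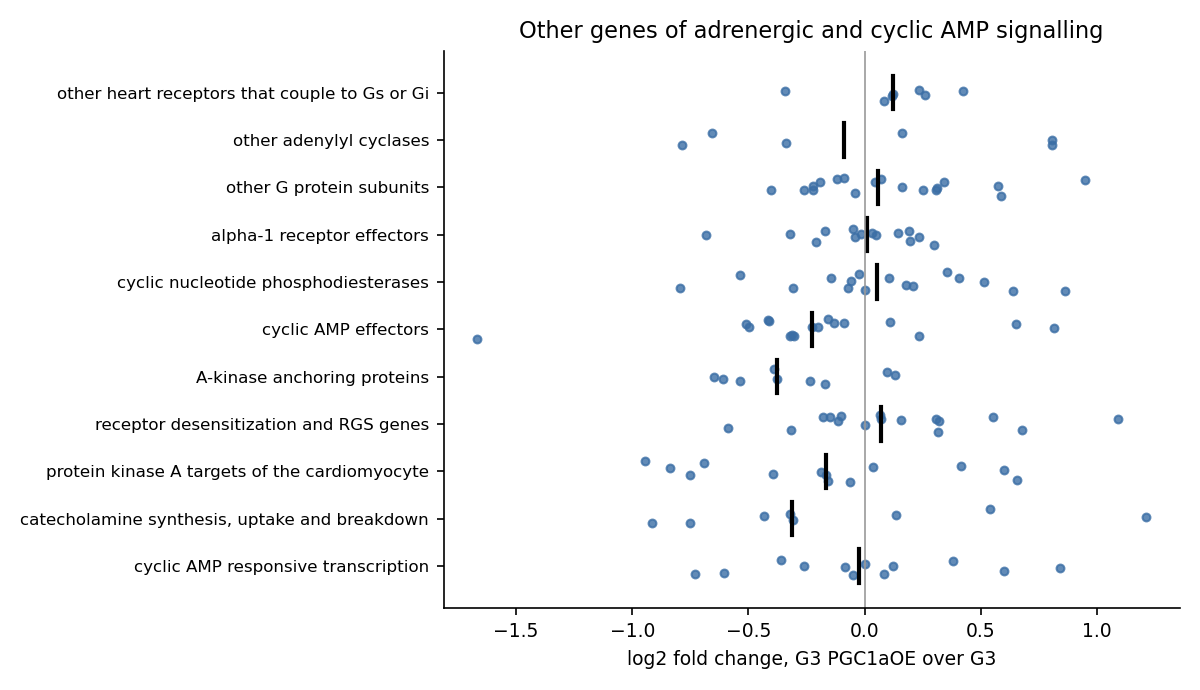
Log2 fold change, G3 PGC1aOE over G3, of each tested gene in 11 lists of adrenergic and cyclic AMP signalling; a point is a gene and the black line the median of its list. List medians lie between −0.38 and 0.12, and Hcn4, a scarce gene, is the point farthest to the left, at −1.67.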

How the data were processed

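RNA of left ventricle was sequenced in 7 libraries, 3 labelled G3 PGC1aOE and 4 labelled G3, grouped by title. Per the labels' protocols, libraries were made with an Illumina TruSeq kit from Trizol RNA. The authors deposited 2 tables, whole-number read counts per Ensembl gene and FPKM per gene. The tools named per the submitters' processing notes are Bowtie 0.12.2 and CASAVA, with the build mm9. The sources used here do not name the counting program, its annotation or its use of strand. The deposited FPKM equalled counts divided by column total and 1 length per gene, and for 67.7% of 17627 genes that length was within 1% of the mean length of the gene's transcripts in GENCODE M21. Symbols matched 21748 of 22027 identifiers, and the 279 unmatched held at most 0.0295% of counts. With R 4.3.3 and edgeR 4.0.16, genes too low for filterByExpr were removed, leaving 12674, and counts were TMM-scaled. Group was the only term in the 2-sided quasi-likelihood test, adjusted by Benjamini-Hochberg over all tested genes at 0.05. Log2 fold changes are G3 PGC1aOE minus G3. CPM used TMM-scaled totals, and log2 CPM a prior count of 2. Shares and ratios came from FPKM within a library.

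The 9 members and the 12 pathway and 11 marker lists were chosen with earlier results of these data known. From each list with at least 3 tested genes the 2 of smallest p are named, and from each marker list given beside a result the 2 most abundant. 1 gene that the rule on likeness names is not reported here. Alternatives were upper quartile or RLE scaling, 2 other filters, DESeq2 1.42.0, limma 3.58.1 on log2 FPKM, covariates from the sample codes, a replicate block, each library left out, and, added after seeing the data, removal of a lowess trend on gene length, the length of the longest coding transcript, and differences within libraries of the same code digit. Replicates of a group differed by a chi-square per gene of at least 38.7, beyond counting noise, so none was merged. P-values measure only the spread between these samples. The fit was tested on simulated counts.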

Additional observations from a re-analysis of the deposited data

How the results depend on the processing

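The 8 tested genes kept the sign of their log2 fold change when each library was left out, and no gene passed in any of those fits. The ranges were −1.73 to −1.10 for Adra1a, −0.75 to −0.34 for Adra1b, −1.11 to −0.15 for Adra1d, −0.52 to −0.26 for Adrb1, −0.63 to −0.22 for Adcy5, −0.69 to −0.27 for Adcy6, −0.48 to −0.19 for Gnas and 0.0011 to 0.25 for Gnai2. Under the other settings 0 of the 9 genes was called, and Adra1a lay between −1.52 and −1.11. Gnai2 turned to −0.027 with the code number as a covariate and to −0.077 with the length trend removed; the cause was not tested. Over the whole table DESeq2 called 3 genes (Acot1, Col3a1 and Ptn) and the fit with a replicate block 6, against 0 without it, and none was one of the 9 or of the pathway lists. With the replicate block Adra1a had −1.29 and Gnai2 0.22. Same-numbered libraries did not deviate together in every pair, with correlations of 0.46, 0.12 and −0.086 for numbers 1 to 3, so the numbers were not taken to pair the libraries, and whether they share anything more is not given. The difference in the Adrb1 share of Adrb1 and Adrb3 FPKM was −2.48 percentage points and moved to −4.26 with the longest coding transcript as length; the cause was not tested. Left-out libraries gave −15.9 to −8.45 percentage points for the Adra1a share, −3.85 to −1.74 for the Adrb1 share, −0.46 to −0.23 for the log2 ratio of alpha-1 to beta receptors, −0.044 to 0.19 for that of Adcy5 to Adcy6 and −0.55 to −0.31 for that of Gnas to Gnai2. Of 198 list medians under other settings, all moved by less than the median SE of the list, and 24 took the other sign. Depth limits Adrb3, with 11 counts in all.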

Other observations

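Genes whose log2 CPM followed Adra1a most closely over the 7 libraries, out of 10133 ranked, were AW554918 (Pearson r = 0.99), Tsc22d2 (0.99), Zdhhc9 (0.98), Mgrn1 (0.97) and Kif1bp (0.97). The correlation of deviations from the group means was 0.96, 0.98, 0.92, 0.93 and 0.93 for these 5. Their log2 fold changes lay between −0.56 and −0.38, smaller in size than the −1.40 of Adra1a. Adra1b had r = 0.41 with Adra1a. For Adrb1, genes among the closest were Pcca, Maob, Ctnna3 and Acad11, with r between 0.97 and 0.98. These values come from the same 7 libraries, share their depth and are a description of them. Taking the highest of 10133 ranked genes over 7 libraries favours high r, also for the deviations.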
